A study of Triticum aestivum with 161 samples.

Results

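The nitrogen response of grain was followed in Malacca, a winter wheat cultivar grown in field plots at Rothamsted. The comparison took the 12 arrays of Malacca caryopses from Rothamsted in 2009 and 2010 that had the highest and the lowest nitrogen supply, out of 161 arrays in the series. Of these, 6 came from plots given 350 kg of nitrogen per ha (N350) and 6 from plots given 100 kg per ha (N100), with 3 plots per supply and season. A further 5 Malacca arrays, 2 from 2009 and 3 from 2010, came from plots given 200 kg per ha (N200) and served as the middle supply. All were whole caryopses of this 1 cultivar, taken 21 days after anthesis in the middle of grain filling. The series design text states that 10 tagged heads were sampled per plot, and the labels call the plots biological replicates. The 5 other cultivars at Rothamsted in the same seasons (90 arrays) were used only to ask whether Malacca differed from them. Values are log2 signals of probe sets on Affymetrix wheat arrays, so a difference of 1 is a doubling of signal.

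The wheat grain stores nitrogen in the starchy endosperm as gliadins and glutenins, the proteins that form gluten, beside smaller families such as the avenin-like proteins. The endosperm also accumulates inhibitors of proteases and amylases, among them the serpins, which bind serine proteases irreversibly. The embryo, which shares the caryopsis with the endosperm, makes late embryogenesis proteins under the hormone abscisic acid as it matures. Grain protein is known to rise with nitrogen supply, and storage protein genes are known to respond to nitrogen during filling.

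In the 17 Malacca arrays signals ran from 1.71 to 15.04, and plots of the same group had a median SD of 0.177. Endosperm markers were high on every array, with a mean of 11.65 to 12.22 over 11 probe sets. Markers of green pericarp (PsbP, PRK and Trx-M) stood at 9.47 to 10.01 over 4 probe sets. The planned marker lists also held rbcl for green pericarp and PER1 and LEA1 for the embryo, which were left out of these means. Embryo markers varied most: the mean of 9 probe sets of EM, EMH2, Rab15 and WGA2 ran from 5.45 to 10.53 between plots. In 2009 it was 5.86, 6.12 and 5.45 in the N100 plots, 6.25 and 7.91 in the N200 plots, and 5.80, 9.72 and 9.91 in the N350 plots (replicates 1, 2 and 3 in order). In 2010 it was 7.42, 8.92 and 8.72 at N100, 10.53, 9.78 and 10.07 at N200, and 8.57, 9.52 and 10.37 at N350. Replicate 1 of N350 in 2009 thus lay among the N100 plots for these markers, and it was also the array farthest from its group mean, with a root mean square deviation of 0.30 against 0.12 to 0.26 for the other arrays. Replicate 1 of N350 in 2010, at 0.26, was next. The gap between 3' and 5' probe sets of 7 control transcripts is a measure of RNA integrity and labelling. Its values in 2009 were 0.94 to 1.05 at N100, 0.71 to 0.72 at N200 and 0.59 to 0.91 at N350. Those of 2010 were 0.92 to 0.96, 0.83 to 0.95 and 0.77 to 1.0. Every N100 plot of 2009 thus lay above every N200 and N350 plot, so this gap and nitrogen supply were confounded in that season. In whole caryopses fewer cells of a type and less RNA per cell cannot be told apart.

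The cultivar label was checked with probe sets chosen on other plots. In 54 reference arrays at N200 from RAGT and from Rothamsted in 2011, 9 of Malacca and 45 of the other cultivars, 8 probe sets were lower in Malacca by at least 3 (log2) than in each other cultivar. Of these, 6 have no gene name, and in all 17 Malacca arrays they stayed between 1.42 below and 0.88 above their Malacca reference, whereas the nearest other cultivar lay 3.11 to 4.66 above it. None of 32 probe sets that mark another cultivar rose by more than 1.53. These levels come from different seasons, which may have been normalized separately. By this check no array went against its label. The 2 named probe sets of the group, for WSZ2a and Gli-D2-1, did rise, and are described below with their nitrogen response.

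**Figure D1:**
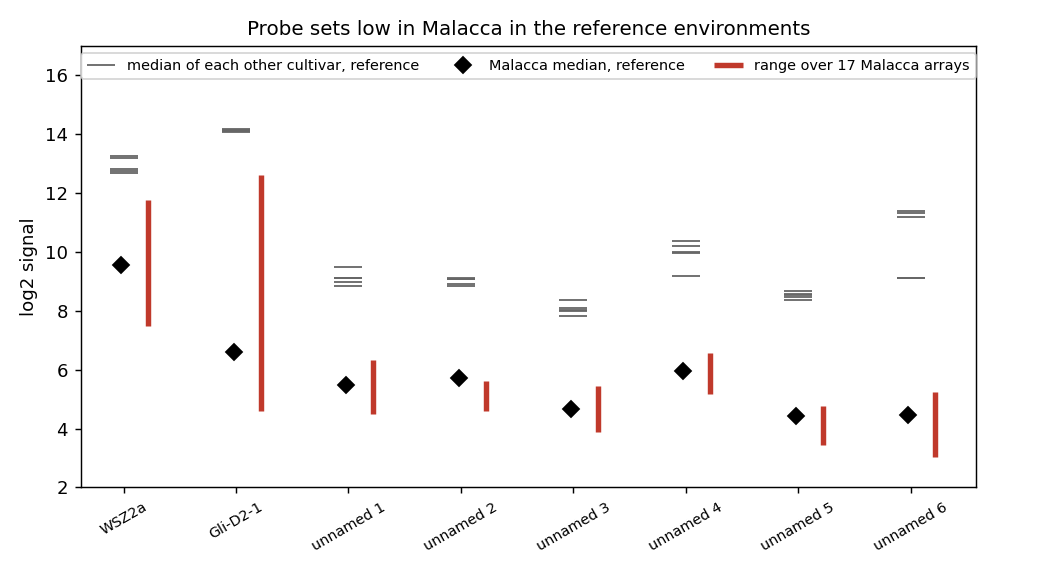
Levels (log2 signal) of the 8 probe sets that were low in Malacca in the reference arrays, with the median of each other cultivar (dashes), the Malacca reference median (diamonds) and the range over the 17 Malacca arrays (red lines). The 6 unnamed probe sets stayed near the Malacca reference, while WSZ2a reached 11.76 and Gli-D2-1 reached 12.61.

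The comparison of N350 with N100, averaged over both seasons, asked which grain transcripts followed nitrogen supply in this cultivar. Transcripts of all 4 named serpins, of an alpha gliadin and of a gamma gliadin were higher at N350, by 1.24-fold to 5.02-fold. Transcripts of the avenin-like proteins ALP and avnla, of the inhibitor wci and of the tubulin tubb3 were lower, by 1.31-fold to 2.12-fold. Of 61178 probe sets tested with limma, which moderates the spread of each probe set by that of all, 885 (1.45%) passed an adjusted p of 0.05, 397 (0.649%) higher and 488 (0.798%) lower. At least 1.5-fold changes made up 422 of them, 221 higher and 201 lower. The median difference over all probe sets was 0.01. Most called probe sets have no gene name in the annotation: 14 of the 885 have one, for 10 genes.

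Serpins are the group that rose as a whole: all 5 probe sets, for 4 genes, were called higher, against 0.649% of all probe sets. Their median difference was 1.33 against 0.01 for all probe sets. WSZ1c was at 10.14, 9.69 and 9.37 in the N100 plots of 2009 and at 10.23, 10.51 and 10.80 in the N350 plots. In 2010 it was at 9.36, 8.98 and 9.14 at N100 and at 11.53, 12.29 and 12.34 at N350. The supplies did not overlap in either season, but in 2009 the closest plots were 10.14 and 10.23. Averaged over seasons WSZ1c rose by 1.84 ± 0.16 (SE), or 3.57-fold (limma adjusted p = 4.43e-05), the smallest adjusted p of all probe sets tested.

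WSZ2a, a related serpin, was at 7.92, 7.50 and 7.67 at N100 in 2009 and at 8.40, 10.28 and 9.68 at N350. In 2010 the N100 plots gave 8.05, 8.58 and 8.26 and the N350 plots 10.36, 11.48 and 11.76. Every N350 plot exceeded every N100 plot of its season, with replicate 1 the lowest N350 plot in both. WSZ2a rose by 2.33 ± 0.27 (SE), 5.02-fold (limma adjusted p = 0.000279), the largest rise among named probe sets past the threshold. Its probe set is of the _x_at design, whose probes can match several related transcripts, so the signal may not be that of WSZ2a alone. The same limit holds for the called probe sets of Gli-B2-11 and GAG56D described below.

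WSZ2b was at 12.08, 12.02 and 11.99 at N100 in 2009 and at 12.67, 13.28 and 13.29 at N350. In 2010 it was at 12.13, 12.09 and 12.31 at N100 and at 13.69, 13.81 and 13.83 at N350. The N100 plots of each season lay close together, and no N350 plot came near them. The rise was 1.33 ± 0.13 (SE), 2.51-fold (limma adjusted p = 0.000129). WSZ1b, the serpin with the highest signal, rose by 0.45 and 0.31 in its probe sets, at levels between 13.19 and 14.20 near the top of the scale, with adjusted p of 0.00658 and 0.0288. The probe set with the smaller rise passed in only 4 of the 12 fits that left out a single array.

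Among the named gliadins 2 probe sets passed, for Gli-B2-11 and GAG56D. The alpha gliadin Gli-B2-11 was at 11.68, 11.54 and 11.18 at N100 in 2009 and at 12.08, 12.20 and 12.31 at N350, and in 2010 at 11.85, 11.56 and 11.70 against 12.16, 12.59 and 12.51. Its N350 plots lay above its N100 plots in both seasons. The rise was 0.72 ± 0.10 (SE), 1.65-fold (limma adjusted p = 0.00181). The gamma gliadin GAG56D was at 13.01, 12.77 and 12.94 at N100 in 2009 and at 13.40, 13.38 and 13.39 at N350, and in 2010 at 12.79, 12.64 and 12.88 against 13.49, 13.57 and 13.57. The N350 plots of each season lay close together and above all N100 plots. This probe set rose by 0.63 ± 0.07 (SE), 1.55-fold (limma adjusted p = 0.000305), while the other 2 probe sets of GAG56D, with differences of 0.26 and 0.24, did not pass (adjusted p = 0.0636 and 0.37). Gli-D2-16, the alpha gliadin of highest signal at a mean of 14.90 and near the top of the scale, differed by 0.14 (adjusted p = 0.289). The 3 glutenin probe sets, all of Glu-D3, did not pass and lay between -0.24 and 0.10. Within the gene lists, 1 of 4 alpha gliadin and 1 of 3 gamma gliadin probe sets were called higher and none lower. Over all probe sets 0.649% were called higher. Gli-8, a named gliadin outside these lists, differed by 0.09 and was not called.

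**Figure D2:**
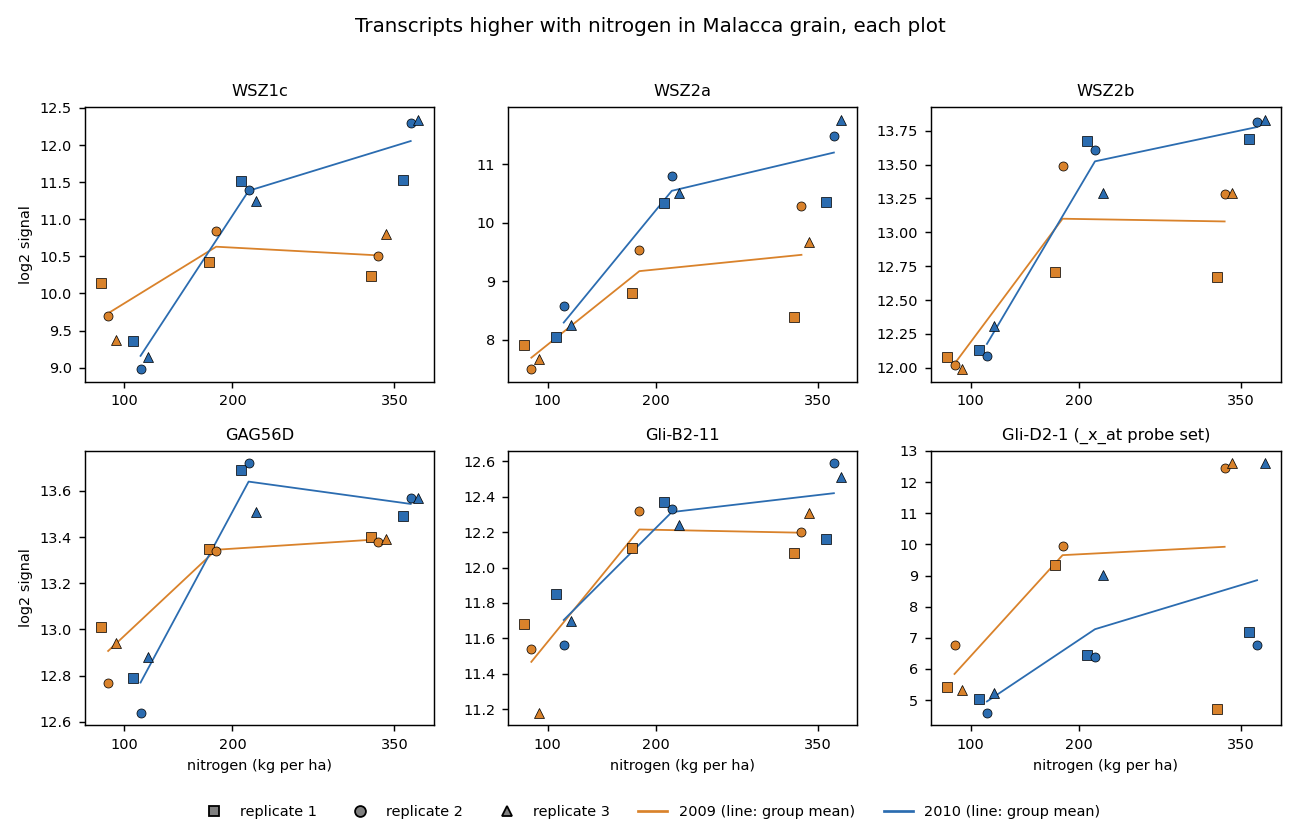
Signal (log2) of 6 probe sets in each Malacca plot against nitrogen supply, with 2009 in orange, 2010 in blue, a symbol per replicate and lines through the group means. For 5 of them N350 lay above N100 without overlap in both seasons, whereas replicate 1 of N350 in 2009 had the lowest Gli-D2-1 signal of its season, 4.70.

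The avenin-like proteins, sulphur-rich storage proteins related to the gliadins, went the other way: 5 of 6 probe sets were called lower, with a median difference of -0.68, against 0.798% of all probe sets called lower. The ALP probe set with the largest fall was at 13.51, 13.50 and 13.63 at N100 in 2009 and at 13.41, 13.01 and 12.54 at N350. In 2010 it was at 13.58, 13.79 and 13.59 at N100 and at 11.86, 12.47 and 11.82 at N350. N350 lay below N100 in both seasons, narrowly so for replicate 1 of 2009. It fell by 1.08 on the log2 scale (SE 0.18), 2.12-fold (limma adjusted p = 0.00714), and 2 further ALP probe sets fell by 0.71 and 0.63 (adjusted p = 0.0022 and 0.00502). The remaining ALP probe set, at a mean of 10.58, differed by -0.05 (adjusted p = 0.854).

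For avnla the probe set with the larger fall was at 13.91, 13.88 and 14.08 at N100 in 2009 and at 13.78, 13.59 and 13.31 at N350, then at 13.89, 14.07 and 13.86 against 12.61, 13.01 and 12.56 in 2010. The supplies did not overlap in either season, and the gap was wider in 2010. The fall was 1.75-fold, a log2 difference of -0.81 ± 0.13 (SE, limma adjusted p = 0.00658), and the other avnla probe set differed by -0.65 (adjusted p = 0.0111). The inhibitor gene wci was at 13.86, 13.93 and 14.00 at N100 in 2009 and at 13.82, 13.21 and 13.21 at N350, and at 13.95, 13.86 and 13.81 against 12.85, 12.43 and 12.43 in 2010. Replicate 1 of N350 in 2009 lay just below its N100 plots and the other N350 plots well below. Its log2 difference was -0.91 ± 0.12 (SE), 1.88-fold lower (limma adjusted p = 0.00138). It was the only one called of 5 probe sets in the list of amylase and trypsin inhibitors, the other 4 lying between -0.20 and -0.13. WMAI-1, an amylase inhibitor outside that list, differed by -0.01 and was not called.

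**Figure D3:**
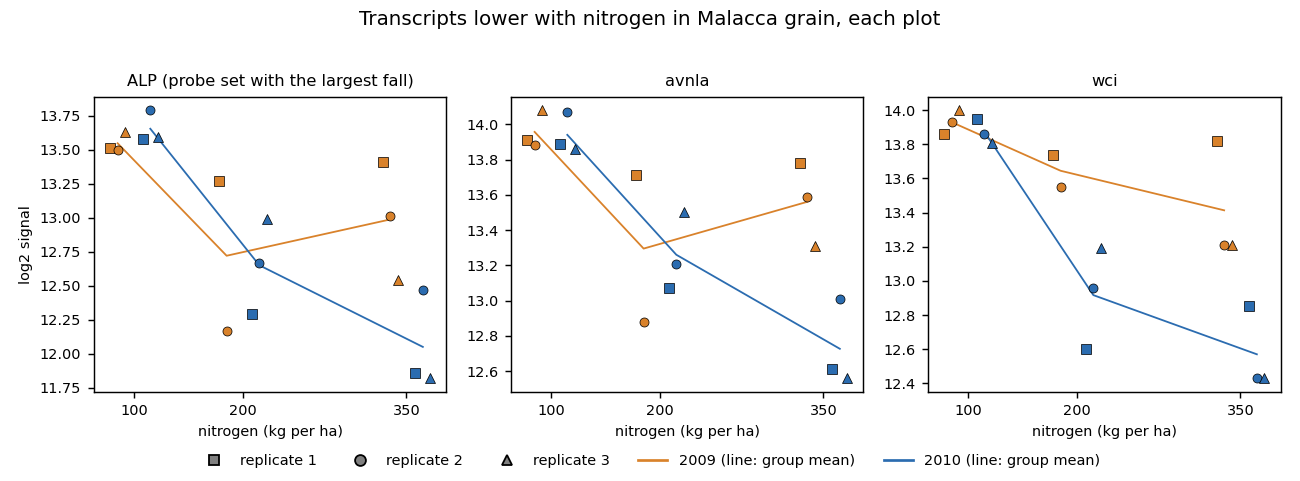
Signal (log2) of the ALP probe set with the largest fall, avnla and wci in each Malacca plot against nitrogen supply, with 2009 in orange, 2010 in blue and lines through the group means. N350 lay below N100 in both seasons for all 3, with replicate 1 of 2009 closest to the N100 plots.

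The beta-tubulin tubb3, a subunit of microtubules, had log2 differences of -0.38 in 2009 and -0.39 in 2010 and fell 1.31-fold over both (limma adjusted p = 0.0471), the only call among 10 tubulin and actin probe sets. It was close to the threshold and passed in 2 of the 12 fits without a single array. Other groups held no call: 36 photosynthesis probe sets lay between -0.19 and 0.33, 18 histone probe sets between -0.07 and 0.44, 9 defence probe sets between -0.14 and 1.79 (the highest being WGA2, a lectin of the embryo), 5 of starch and fructan breakdown between -1.60 and 0.22, and 2 of starch synthesis at -0.23 and -0.05. The remaining lists, 1 probe set of heat shock proteins, 4 of gibberellin metabolism, 10 of redox and glutathione, 3 of ubiquitin and proteolysis, 1 of transcription factors and 5 of translation, also held none and lay between -0.23 and 0.27. The annotation named no probe set for puroindolines, nitrogen assimilation or protein folding in the endoplasmic reticulum, so these were not analysed here. All 14 named probe sets that were called had N350 and N100 plots that did not overlap in either season, which over all probe sets held for 1.11% (higher) and 1.31% (lower). The 14 were chosen by the test on these same plots, so nothing is read from that count.

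Embryo genes had large differences that did not pass. The list of embryo maturation, late embryogenesis and abscisic acid genes held 12 probe sets, of which none was called, with a median difference of 1.48 and a range from -0.03 to 2.51. Its members outside the marker group, LEA1, COR410 and the 2 probe sets of PER1, lay between -0.03 and 0.51. EM, an early abscisic acid-responsive protein of the maturing embryo, was at 3.44, 4.14 and 2.89 at N100 in 2009 and at 3.36, 8.76 and 9.25 at N350. In 2010 it was at 5.81, 8.09 and 7.55 at N100 and at 7.40, 8.45 and 9.77 at N350. Replicates 2 and 3 of N350 in 2009 stood far above the N100 plots, replicate 1 stood among them, and in 2010 the supplies overlapped. The difference of this probe set was 2.51 ± 0.78 (SE, limma adjusted p = 0.115). The 9 probe sets of EM, EMH2, Rab15 and WGA2 had differences of 1.36 to 2.51, with adjusted p from 0.0561 to 0.174. Without replicate 1 of N350 in 2009, all 9 passed (adjusted p from 0.000328 to 0.00121). That plot was singled out on these same markers, so its omission favours a call. Each of the 9 passed in only 1 or 2 of the 12 fits that left out a single array. None passed without replicate 3 of all groups (limma adjusted p from 0.651 to 0.847). BMY1, a beta-amylase of the endosperm, was at 9.72, 9.52 and 10.53 at N100 in 2009 against 9.99, 5.51 and 6.28 at N350, and at 8.33, 7.03 and 7.13 against 8.66, 6.93 and 5.29 in 2010. Here too replicate 1 of N350 lay with the N100 plots in both seasons, and the difference of -1.60 ± 0.65 (SE) did not pass (adjusted p = 0.239).

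The unnamed probe sets with the largest called changes had this arrangement of plots. Ta.13191.1.S1_x_at was at 6.76, 6.76 and 6.82 at N100 in 2009 and at 7.26, 9.87 and 10.08 at N350, and its difference over both seasons was 2.85 (adjusted p = 0.00964). Ta.9226.1.S1_at differed by 2.30 (adjusted p = 0.00977), with 7.93, 10.62 and 10.92 at N350 in 2009. Among falls, Ta.837.1.S1_at differed by -2.15 (adjusted p = 0.0199), with 10.43, 7.18 and 7.93 at N350 against 10.67, 10.83 and 10.74 at N100 in 2009, and Ta.7756.2.S1_a_at by -1.92 (adjusted p = 0.0158). In each of these 4 probe sets replicate 1 of N350 in 2009 lay closest to the N100 plots, while replicates 2 and 3 lay well beyond it.

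With the mean of the embryo markers as a covariate 44 probe sets passed, 42 of them among the 885, and with the 3' minus 5' gap as one 33 passed, all among the 885. WSZ1c, WSZ2a, WSZ2b and the GAG56D probe set passed with either covariate (adjusted p from 0.00257 to 0.0343), with differences of 1.58, 1.57, 1.02 and 0.64 given the embryo markers. The other 10 named probe sets passed with neither, and their differences kept their sign: WSZ1b went from 0.45 to 0.40 with the gap and 0.41 with the embryo markers, Gli-B2-11 from 0.72 to 0.61 with either, and ALP from -0.71 to -0.62 and -0.55 in the probe set with its smallest adjusted p. Without replicate 1 the count was 8509, without replicate 2 it was 4, and without replicate 3 it was 16, of which WSZ1c and WSZ2b were the named ones. Without replicate 2 no named probe set passed, and adjusted p was 0.0951 for WSZ1c, 0.0763 for WSZ2b and 0.137 for WSZ2a. Without replicate 1 of N350 alone the count was 3107 in the case of 2009, all 885 among them, and 2782 in the case of 2010. Without any single N100 or N350 plot of replicate 2 or 3 it was 257 to 407.

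The seasons differed in how many probe sets passed, with 0 in 2009 and 322 (0.526%) in 2010, of which 195 were higher and 127 lower. This balance moved with the setting: with a mean signal of at least 6 it was 155 higher and 170 lower, and with the spread of all 161 arrays 537 and 627. In 2009 the smallest limma adjusted p was 0.112, 6211 probe sets had an unadjusted p under 0.05, and 324 passed when the spread was pooled over all 161 arrays. Without replicate 1 of N350, 1796 passed in 2009. The difference between the seasons itself passed for 4 probe sets (0.00654%), with the 2010 response minus the 2009 response above 0 for 3 (0.0049%) and below 0 for 1 (0.00163%), an unnamed probe set whose response was 0.02 in 2009 and -1.53 in 2010. WSZ1c was the named one: its response was 0.78 ± 0.22 in 2009 and 2.89 ± 0.22 in 2010, a difference of 2.11 ± 0.31 (SE, adjusted p = 0.0416). This difference lay between 1.91 and 2.49 in 24 other settings and passed in 10 of them, among these 4 of the 15 that left out arrays. For WSZ2a the responses were 1.75 and 2.90 and for WSZ2b 1.05 and 1.60, and these differences did not pass (adjusted p = 1 for both). The falls of ALP, avnla and wci were also larger in 2010, -1.61, -1.22 and -1.30 against -0.56, -0.40 and -0.52, without a call on the difference.

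The seasons share no plots. Of the 322 probe sets called in 2010, 289 (89.8%) had the same sign in 2009, against 61.7% of all probe sets. An unadjusted limma p under 0.05 in 2009 with that sign was found for 159 (49.4%), against 10.2% of all probe sets with either sign. Both seasons were tested in the same fit, with a shared spread for each probe set. A call in 2010 favours a small spread and with it a low p in 2009, so nothing is read from that share. The median absolute difference of the 322 was 0.876 in 2010 and 0.32 in 2009. Across the 24097 probe sets whose mean signal reached 6, the responses of the 2 seasons correlated with r = 0.53, a description over probe sets that share arrays and are not independent.

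The middle supply was compared with both others. From N100 to N200, 178 probe sets (0.291%) passed, 117 higher and 61 lower, and from N200 to N350 none did, where 1196 (1.95%) had an unadjusted p under 0.05 and the smallest limma adjusted p was 1. The 178 became 0 with the 3' minus 5' gap as a covariate, 15 without replicate 2 of N200 in 2009, and 35 to 89 without any 1 of 8 other plots. WSZ1c was at 10.42 and 10.84 at N200 in 2009 and at 11.51, 11.40 and 11.24 in 2010, above every N100 plot of its season. From N100 to N200 it rose by 1.56 ± 0.16 (SE, adjusted p = 0.00176), and from N200 to N350 it differed by 0.28 ± 0.16. WSZ2b rose by 1.21 ± 0.14, WSZ2a by 1.86 ± 0.28, GAG56D by 0.65 ± 0.08 and Gli-B2-11 by 0.68 ± 0.11 over the first step (adjusted p from 0.00177 to 0.0131). Their differences over the second step were 0.12, 0.46, -0.02 and 0.05, all smaller than those of the first. The steps share the N200 plots, and the difference between the steps was not tested. The falls lay close to the threshold over the first step: ALP had a log2 difference of -0.92 in its most responsive probe set (adjusted p = 0.0547) and wci one of -0.62 (adjusted p = 0.0523), while 1 ALP and 1 avnla probe set passed at 0.0484 and 0.0495. Of the 397 probe sets called higher at N350, 334 had their N200 mean between the other means, as did 427 of the 488 called lower and 13 of the 14 named ones. They were chosen for a gap between N100 and N350, which favours a mean in between. The share over all probe sets was not taken, so nothing is read from these counts.

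Malacca was then set against the 5 other cultivars. An interaction test over the Rothamsted arrays of all 6 cultivars called 4 probe sets (0.00654%) whose N350 minus N100 response differed between Malacca and the mean of the others. The response was higher in Malacca for 3 (0.0049%), which all have a gene, and lower for 1 (0.00163%). The 3 genes were WSZ2a, Gli-D2-1 and Gli-B2-11, each read by an _x_at probe set that may also match related transcripts. For WSZ2a the Malacca response of 2.33 stood beside 0.65 to 1.13 in the single other cultivars, a difference of 1.42 ± 0.23 (SE, limma adjusted p = 0.000759). The cultivar also stood apart in level: WSZ2a had a median of 9.57 in the Malacca reference arrays and 12.82 in those of the other cultivars, and over the 90 arrays of the other cultivars at Rothamsted it ran from 11.31 to 13.47. Of the 17 Malacca plots, only replicates 2 and 3 of N350 in 2010, at 11.48 and 11.76, reached that range. WSZ1c, WSZ2b and WSZ1b did not pass this test (adjusted p from 0.717 to 0.959), with WSZ1c at 1.84 in Malacca and 0.65 to 1.65 in the others.

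Gli-D2-1, an alpha gliadin gene, showed the widest swing of any named probe set in Malacca. Its _x_at probe set, a design whose probes can match several related transcripts, was at 5.43, 6.78 and 5.31 at N100 in 2009, at 9.35 and 9.96 at N200 and at 4.70, 12.46 and 12.61 at N350. In 2010 it was at 5.03, 4.60 and 5.24 at N100, at 6.44, 6.37 and 9.02 at N200 and at 7.19, 6.76 and 12.60 at N350. Only 3 of the 6 N350 plots were high, all N100 plots were low, and in 2009 replicate 1 of N350 was the lowest plot. In the 90 arrays of the other cultivars this probe set never left the range from 13.53 to 14.34, so the highest Malacca plots came within 1 log2 unit of it. The Malacca response of 3.99 did not pass against the spread of the Malacca plots (SE 1.15, adjusted p = 0.0932). Against the spread pooled over cultivars it differed from the others by 3.85 ± 0.60 (SE, limma adjusted p = 0.000621), a spread that does not measure Malacca alone. The responses of the others lay between 0.04 and 0.21, at levels near the top of the scale where little further rise could be measured. Whether they respond less than Malacca below such levels was not tested. In the Malacca reference arrays the medians were 5.77 and 6.57 at RAGT and 8.05 at Rothamsted in 2011, where 1 of the 3 plots reached 11.82. The second probe set of the gene was at 14.10 to 14.43 in all 17 Malacca arrays and differed by 0.16 (adjusted p = 0.265). It lay near the top of the scale, where the highest signal was 15.04 and little further rise could be measured.

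The probe set IDs that share the stem of this gliadin probe set, 16 besides it, gave 4 called higher, none lower and 12 not passed, against 0.649% of all probe sets called higher. The called ones were Gli-B2-11 and 3 without a gene name, with rises of 0.47 to 1.29. All 4 are _x_at probe sets that can match the same transcripts, so they do not count as separate hits. For Gli-B2-11 the Malacca response of 0.72 exceeded the 0.14 to 0.29 of the others, a difference of 0.48 ± 0.10 (SE, limma adjusted p = 0.0427), which passed in 13 of 26 other settings, among these 6 of the 15 that left out arrays. At a mean of 12.04 Gli-B2-11 lay below the median of 12.39 of the other cultivars at Rothamsted. The falls of ALP, avnla and wci were larger in Malacca than in each other cultivar, for example -1.08 against -0.16 to -0.84 for ALP. The difference did not pass (adjusted p from 0.471 to 0.717 over the 6 probe sets). These 6 were chosen for being called in Malacca, which favours a larger fall there. Embryo genes differed by 1.79 to 2.51 in Malacca for EM, EMH2 and WGA2 and by -1.64 to 0.69 in the others, also without a call (adjusted p from 0.719 to 0.771).

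**Figure D4:**
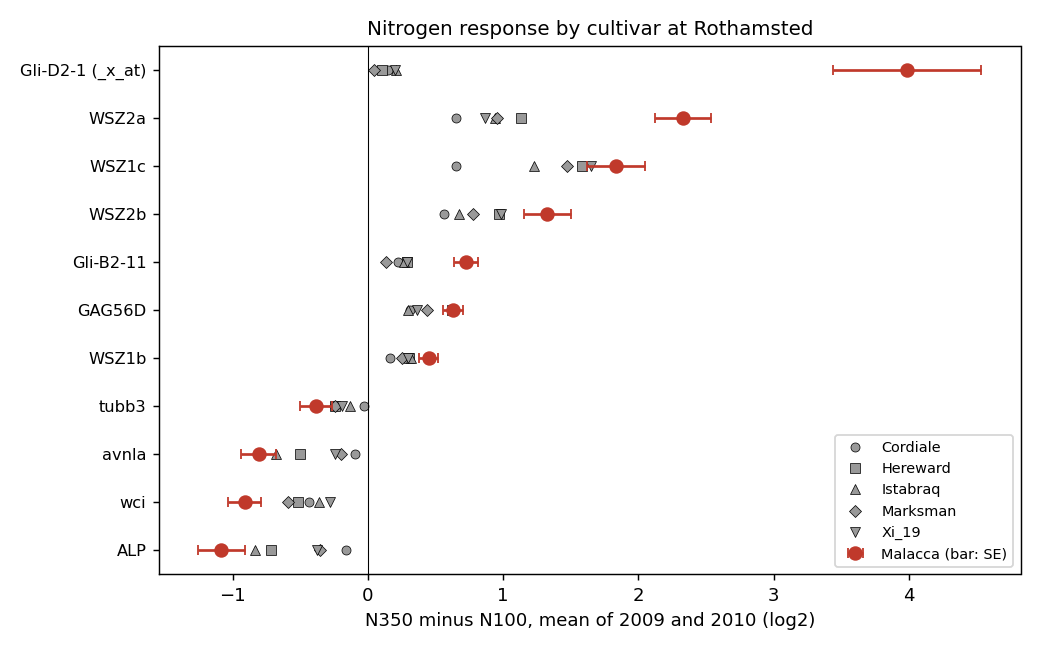
N350 minus N100 (log2, mean of 2009 and 2010) for 11 named probe sets in Malacca (red) and in each of the 5 other cultivars (grey symbols). Bars are the SE from the fit of all 6 cultivars, which differs from that of the Malacca plots alone. It was 0.55 against 1.15 for Gli-D2-1 and 0.21 against 0.16 for WSZ1c. The difference from the mean of the others passed only for Gli-D2-1, WSZ2a and Gli-B2-11. Malacca lay outside the range of the others for all 11, for GAG56D by little (0.628 against 0.623 in Hereward). The 11 were chosen for their response in Malacca, which favours this, so nothing is read from that count.

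The direction of the response was nonetheless shared. Of the 885 probe sets called in Malacca, 867 (98.0%) had the same sign in the mean of the other cultivars, against 70.4% of all probe sets, and 657 (74.2%) in each of the 5, against 20.2%. Their median absolute difference was 0.564 in Malacca and 0.237 in the mean of the others, but they were chosen for being large in Malacca. A set chosen the other way round, without any Malacca array, avoided that choice. In the 90 arrays of the other cultivars 6961 probe sets (11.4%) passed, and 77 (0.126%) also changed by at least 1.5-fold, 53 higher and 24 lower. Of these 77, 73 (94.8%) had the same sign in Malacca and 49 were called in Malacca in that direction, against 1.45% of all probe sets called. The 53 had a median response of 0.82 in the other cultivars and 1.08 in Malacca, and the 24 had -0.64 and -0.57.

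Read plot by plot, the 53 probe sets had medians of 0.60, 0.67 and 0.39 above the N100 mean in the 3 N350 plots of 2009, and of 1.20, 1.69 and 1.78 in those of 2010. Replicate 1 of N350 in 2009 lay among the N100 plots of its season for the embryo markers and below them for the Gli-D2-1 _x_at probe set. It had 48 of the 53 above the N100 mean, beside 44 and 39 in the other N350 plots and 41, 29 and 12 in the N100 plots of that season. The 24 lowered probe sets had medians of -0.43, -0.31 and -0.10 in 2009 and of -0.73, -1.03 and -1.03 in 2010. The N100 plots had -0.10, 0.18 and -0.03 for this set in 2009 and -0.09, 0.07 and -0.01 in 2010, so in 2009 replicate 3 of N350 stood level with the lowest N100 plot. At N200 the 53 stood at 0.65 and 0.75 in 2009 and at 1.09, 1.24 and 1.16 in 2010. For the raised set the N100 plots lay between -0.17 and 0.19, so that every N200 and N350 plot was above every N100 plot of its season.

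**Figure D5:**
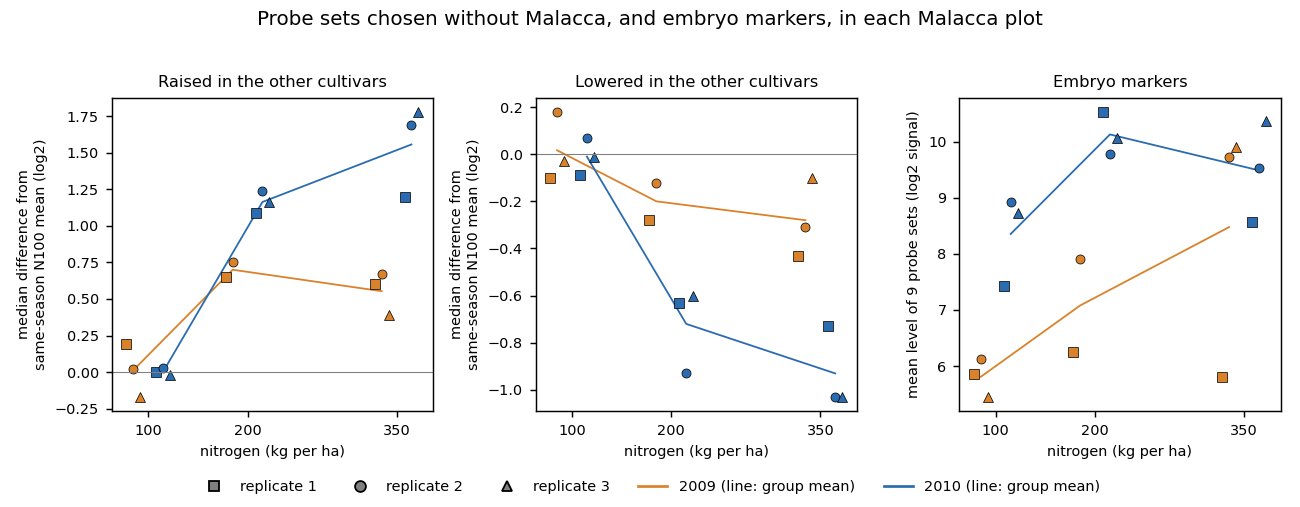
Each Malacca plot against nitrogen supply: the median difference (log2) from the same-season N100 mean of 53 probe sets raised and 24 lowered in the other cultivars, and the mean level (log2 signal) of 9 embryo probe sets. Replicate 1 of N350 in 2009 stood at 0.60 for the raised set, like its neighbours, and at 5.80 for the embryo markers, like the N100 plots.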

How the data were processed

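Total RNA of caryopses was hybridised to Affymetrix wheat arrays, 1 per plot. The values the authors deposited are on a log2 scale, 1 signal for each probe set, and were made with RMA per the submitters' processing notes, without a stated version. Distributions differed by season as if each had been normalized on its own, so nitrogen was compared within seasons. Depth has no meaning for arrays, and their number limits the precision. Of 61288 probe sets, 110 controls were left out. The annotation gave 1 gene to 1273 probe sets, and 200 (102 genes) had a name that points to a protein; no genome build was given, so neither positions nor sequences are stated.

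limma 3.58.1 in R 4.3.3 fitted a mean per group to the 17 Malacca arrays (11 residual degrees of freedom), with both seasons weighted equally. Cultivars were compared, as an interaction, in a fit of all Rothamsted arrays of both seasons. P-values are two-sided and were adjusted by Benjamini-Hochberg over 61178 probe sets. Plots with the same replicate number were not treated as pairs. The named genes were up to 12 per direction with an informative name, an adjusted p under 0.05, a mean of at least 6 and the same sign in both seasons, beside members of 22 gene lists and all probe sets of WSZ2a, Gli-D2-1 and ALP. The members and lists were chosen with earlier results of these data known. The set of 77 probe sets and the embryo covariate were added after seeing the data. The script was tested on simulated data. Other settings were all arrays, a level filter, other normalizations and variance models, array weights, a replicate block, covariates and left-out arrays.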

Additional observations from a re-analysis of the deposited data

Results flagged for a closer look

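The response of WSZ1c to N350 differed between the seasons by 2.11 (log2, 2010 minus 2009), and so did those of 3 probe sets without a gene name, by 2.82, 1.73 and -1.55, each in a test of the difference itself. The WSZ1c difference passed in 10 of 24 other settings. The response of Malacca differed from the mean of the other cultivars by 3.85 for the Gli-D2-1 _x_at probe set, by 1.42 for WSZ2a, by 0.48 for Gli-B2-11 and by -1.76 for the unnamed Ta.10028.1.S1_at, again in a test of the difference. The Gli-B2-11 difference passed in 13 of 26 other settings. Groups of 2 or 3 plots were not tested for single outlying plots.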

How the results depend on the processing

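For N350 minus N100 over both seasons, 885 probe sets passed, 422 with at least 1.5-fold, 3192 with the spread of all 161 arrays, 6697 with array weights, 33 with the 3' minus 5' covariate and 44 with the embryo covariate, which was chosen after seeing the data; leaving out replicates or arrays gave 4 to 8509. With a mean of at least 6 it was 948 (33.2% higher, against 44.9%). In 2009 the 0 became 324 with all arrays, 1100 with weights and 0 to 2648 with arrays left out, and in 2010 the 322 became 1164, 4789 and 12 to 3264. The season difference (4) became 9 with all arrays, 1 with a mean of at least 6, 7 with a trend, 17 with weights and 0 to 423 with arrays left out. N200 minus N100 (178) became 118 at 1.5-fold, 1452 with all arrays, 3878 with weights, 0 with the 3' minus 5' covariate and 0 to 3412 with arrays left out, and N350 minus N200 (0) reached 1 without replicate 1. The cultivar difference (4) became 14 with all arrays, 2 with N100 and N350 arrays alone, 373 with weights, 2 with either covariate, 0 without the 399 probe sets that mark cultivars (WSZ2a and Gli-D2-1 are among those) and 0 to 1602 with arrays left out. Among fits with arrays left out, the highest counts came without replicate 1 and, where a count fell, the lowest without replicate 2; the cause was not tested. Replicate numbers were not taken to pair plots: deviations of same-numbered plots had r over 0.1 in 10 of 16 pairs (-0.46 to 0.70) and in 3 of the 6 of N100 and N350 (-0.10 to 0.41), but in all 5 of N200 and N350 (0.27 to 0.70), where the count stayed 0 with a block. With a replicate block the counts were 1451 over both seasons, 9 in 2009 and 9 for the season difference. With the embryo covariate the sign turned for BMY1 (0.44), EM (-0.16), EMH2 (-0.16), Rab15 (-0.13 and -0.086) and WGA2 (-0.30), 1 probe set each but for Rab15; apart from BMY1 these make up the covariate, so their adjusted differences centre near 0 by construction. The ALP probe set that differed by -0.05 ran from -0.106 to 0.003 with arrays left out, its season difference from -0.222 to 0.02 and its cultivar difference from -0.032 to 0.09, and the last was -0.021 and -0.079 with the 3' minus 5' and embryo covariates. Counts under other settings stayed within 1.5 times the counts given. Leaving out arrays that stand apart on the cultivar check was not run, since none did.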
